A study of Mus musculus with 2 samples.

Results

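The 47 genes described here encode transcription factors that steer cells of the early mouse embryo into ectoderm, mesoderm, endoderm or trophoblast. They were taken as a named list, chosen with earlier results of these data known, and all 47 were found by symbol among the 25749 genes of the deposited values. Of these, 18 were counted with ectoderm, 14 with mesoderm, 8 with endoderm and 7 with trophoblast. Gata2 and Cdx1 act in more than a single lineage and were counted with mesoderm. The cells were E14.1, a line of mouse embryonic stem cells. The WT library came from E14.1 cells with wild-type AHCY, the enzyme that hydrolyses S-adenosylhomocysteine, and the T136A library from E14.1 cells in which this enzyme carries the T136A replacement. Whether the T136A cells were 1 clone, and how the replacement was introduced, is not given in the sources used here. Each genotype had 1 library, so no difference below has a replicate check, and "higher" and "lower" speak of these libraries only.

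Embryonic stem cells resemble the epiblast of the early embryo, which gives rise to the 3 germ layers but normally not to trophoblast. Ectoderm forms skin and the nervous system, mesoderm forms muscle, heart and blood, endoderm forms the gut and its glands, and trophoblast forms the embryonic part of the placenta. In undifferentiated cells many of the genes that start these fates are held at low levels by Polycomb repression at promoters rich in CpG dinucleotides, a state often called poised or primed. The data hold transcript levels only and no chromatin measurement, so "primed" is used below for a level and nothing else.

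Levels are in RPKM, read numbers scaled to exon length and to library size, which allows genes of different length to be set side by side. A gene was called silent when both libraries were under 0.1 RPKM. By the higher library, it was called trace from 0.1 to under 1 RPKM, primed from 1 to under 10 RPKM and expressed from 10 RPKM. The values imply 17506154 reads for WT and 18396840 for T136A. A fold is a plain RPKM ratio, and its 95% interval is the exact conditional binomial one from the read numbers behind the values. That interval covers counting error only, since each genotype had 1 library. Reads carry no molecular identifiers, so copies of 1 molecule cannot be told from separate molecules. For a ratio given as a fold lower, the interval is that of WT over T136A, and otherwise that of T136A over WT. In these bulk samples, fewer cells of a type and less RNA per cell cannot be told apart.

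The libraries had the markers of embryonic stem cells. All 10 stem cell markers were expressed in both libraries, the lowest being Tfcp2l1 at 49.9 and 35.5 RPKM, with Pou5f1 at 271 RPKM in WT and 223 in T136A, Sox2 at 343 and 294, and Nanog at 673 and 517. Of the 10, 7 had a lower value in T136A and 3 a higher one, namely Utf1 (94.2 and 284 RPKM), Zfp42 (252 and 397) and Tdgf1 (161 and 263). Of 12 feeder fibroblast markers 9 were found, with a summed level of 122 RPKM in WT and 89.1 in T136A. Without Fn1, which stem cells also make and which had 93.4 and 32.9 RPKM, the other 8 summed to 29.0 and 56.1 RPKM. All 8 had a higher value in T136A, led by S100a6 (13.3 and 28 RPKM) and Vim (10.9 and 19.9 RPKM). The counting interval lay above 1 for 4 of them. It included 1 for Col1a1, Col1a2, Postn and Fbn1 (0.353 and 0.354 RPKM). The fibroblast collagen Col1a2 stood at 0.0368 and 0.0525 RPKM and Postn at 0 and 0.00625 RPKM. The 8 markers of 2-cell-like cells were all at 0 in WT and summed to 5.66 RPKM in T136A. The part of either marker list in the values of the lineage factors was not tested.

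By level, 13 of the 47 factors (27.7%) were silent, 17 (36.2%) were at trace level, 14 (29.8%) were primed and 3 (6.38%) were expressed. Foxd3, Gbx2 and Ets2 were the 3 expressed factors, each in the T136A library alone, and no factor reached 10 RPKM in both libraries. Among all 25740 genes with 1 identifier per symbol, 27.8% were silent, 24.4% at trace level, 27.2% primed and 20.7% expressed. The silent and primed shares of the 47 were thus near those of all genes, while their trace share was larger. Among all protein coding genes, 17.5% were silent, 19.8% at trace level, 34.2% primed and 28.4% expressed. Among the 117 other genes of the same families, 31.6% were silent, 28.2% at trace level, 25.6% primed and 14.5% expressed. The lineages differed in make-up. Ectoderm held both the most silent members, 7 of 18, and 2 of the 3 expressed ones. Mesoderm was mostly at trace level, with 8 of 14 members there, 4 silent and 2 primed. All 8 endoderm members were detected at trace level (4) or primed (4), with none silent, although Foxa2 was under 0.1 RPKM in WT. Trophoblast was split, with 3 members above 2 RPKM in both libraries and 4 below 0.4 RPKM in both.

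**Figure D1:**
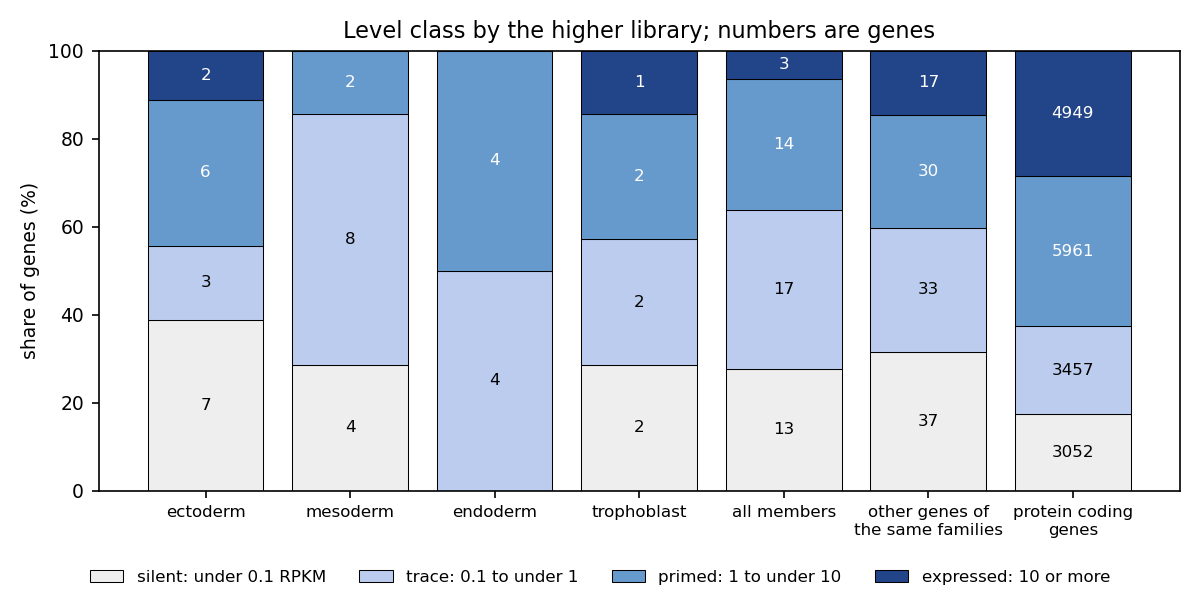
Share of genes (y axis, %) in each level class, by the higher of the WT and T136A libraries, for the 4 lineages, all 47 members, 117 other genes of the same families and all protein coding genes; the numbers in the bars are genes. Silent members make up 7 of 18 in ectoderm and 0 of 8 in endoderm.

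The summed level of a lineage often came from a few genes. In ectoderm the sum was 27.6 RPKM in WT, with 29.8% from Foxd3 and 28.1% from Sox1. It was 37.5 RPKM in T136A, with 40.0% from Foxd3 and 33.1% from Gbx2. Ets2, Tead4 and Esx1 gave 97.8% of the trophoblast sum in WT (20.7 RPKM) and 98.6% in T136A (21.4 RPKM). Hhex alone gave 56.1% of the endoderm sum of 7.80 RPKM in WT and 49.2% of the 13.1 RPKM in T136A. The 14 mesoderm members together reached 5 RPKM in WT and 5.22 RPKM in T136A. Gata2, Mixl1 and Cdx1 gave 71.8% of that sum in WT but 48.5% in T136A, so it was more evenly spread there.

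**Figure D2:**
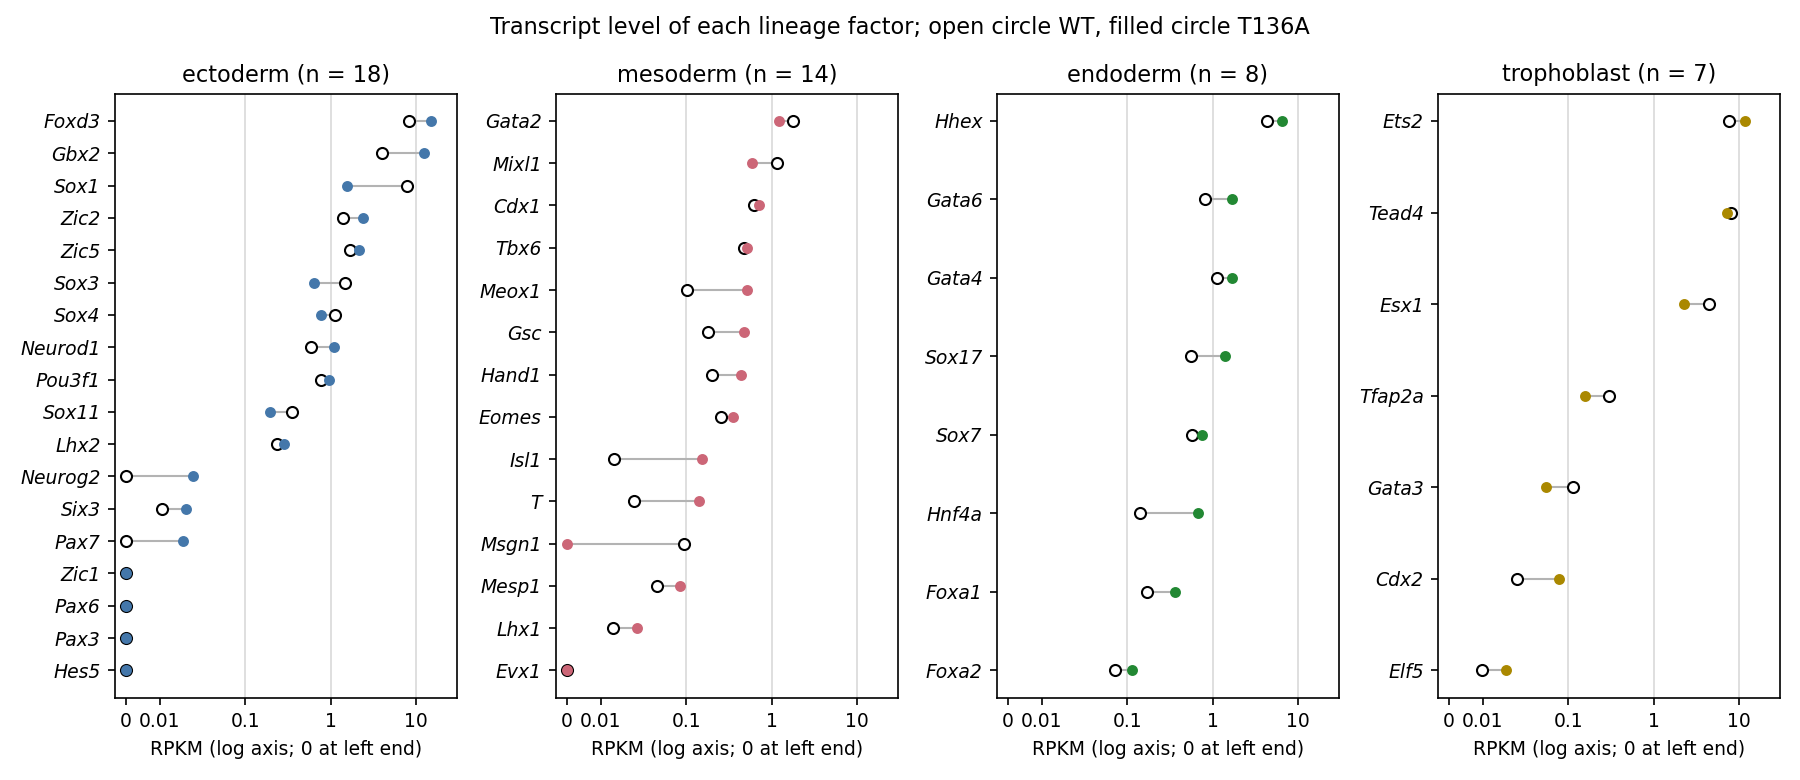
RPKM of each member on a log axis, with 0 drawn at the left end, in WT (open circles) and T136A (filled circles), 1 panel per lineage. Every filled circle of the endoderm panel lies to the right of its open circle, while the other panels hold shifts in both directions.

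Promoter sequence was available for 34 of the 47 members, as a window of 300 bases around the RefSeq start (250 before to 50 after it, GRCm38.p6). A window was called CpG-rich when its CpG count was at least 0.6 of that expected from its C and G content and its GC content was at least 50%. The 6 upstream stretches below, cut where the annotated transcript begins, show the range from dense to sparse CpG at different levels. Foxd3 and Gbx2 are expressed, Hes5 had no read, Isl1 and Hnf4a had their reads mainly in T136A, and Msgn1 had a single read. Capitals mark each CpG dinucleotide, and every sequence is written 5′ to 3′ on the strand of its gene.
Foxd3, chr4:99656049-99656298, plus strand: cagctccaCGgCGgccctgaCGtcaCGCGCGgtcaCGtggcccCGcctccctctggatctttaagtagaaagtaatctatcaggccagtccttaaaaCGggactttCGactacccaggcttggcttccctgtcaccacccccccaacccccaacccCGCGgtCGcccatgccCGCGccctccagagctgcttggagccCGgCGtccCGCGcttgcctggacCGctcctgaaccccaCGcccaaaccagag
Gbx2, chr1:89931180-89931426, minus strand: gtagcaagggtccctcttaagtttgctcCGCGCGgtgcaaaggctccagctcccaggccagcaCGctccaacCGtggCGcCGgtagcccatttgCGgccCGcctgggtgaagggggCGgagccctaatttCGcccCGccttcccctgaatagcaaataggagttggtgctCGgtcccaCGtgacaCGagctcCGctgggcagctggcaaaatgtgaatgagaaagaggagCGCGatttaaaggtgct
Hes5, chr4:154960673-154960922, plus strand: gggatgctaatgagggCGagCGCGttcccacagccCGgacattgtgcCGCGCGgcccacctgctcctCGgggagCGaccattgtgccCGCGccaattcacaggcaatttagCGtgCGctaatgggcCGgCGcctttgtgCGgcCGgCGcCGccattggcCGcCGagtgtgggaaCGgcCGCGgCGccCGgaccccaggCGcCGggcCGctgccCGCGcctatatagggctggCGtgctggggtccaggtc
Isl1, chr13:116309690-116309938, minus strand: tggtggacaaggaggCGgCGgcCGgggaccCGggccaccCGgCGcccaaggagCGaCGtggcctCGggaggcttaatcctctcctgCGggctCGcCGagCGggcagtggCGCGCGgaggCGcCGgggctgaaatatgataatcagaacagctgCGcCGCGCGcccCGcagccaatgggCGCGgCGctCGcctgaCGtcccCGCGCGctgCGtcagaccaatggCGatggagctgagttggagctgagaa
Hnf4a, chr2:163506607-163506807, plus strand: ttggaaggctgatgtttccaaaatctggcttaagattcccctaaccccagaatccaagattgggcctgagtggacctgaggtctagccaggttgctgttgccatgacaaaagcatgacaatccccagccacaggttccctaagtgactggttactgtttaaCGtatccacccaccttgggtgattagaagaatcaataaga
Msgn1, chr12:11208973-11209198, minus strand: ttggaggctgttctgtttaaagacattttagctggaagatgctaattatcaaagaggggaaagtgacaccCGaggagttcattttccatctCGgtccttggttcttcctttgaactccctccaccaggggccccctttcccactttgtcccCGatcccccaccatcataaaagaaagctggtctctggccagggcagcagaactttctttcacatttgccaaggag

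The stretches of Foxd3, Gbx2, Hes5 and Isl1 held 21, 18, 32 and 33 CpG dinucleotides, against 1 for Hnf4a and 3 for Msgn1. Hes5, without a read, thus had a denser window than Foxd3, the most abundant member. Of the 34 members with a window, 22 (64.7%) were CpG-rich, against 54.7% of 15226 genes and 56.6% of 83 other genes of the same families. Among silent genes the contrast with all genes was wider: 6 of 12 silent members (50%) had a CpG-rich window, against 20.8% of 3163 silent genes. Silent genes of the same families were not counted apart, so the contrast may not be particular to the members. All 3 expressed members were CpG-rich, as were 78.7% of expressed genes. By lineage, 11 of 14 ectoderm windows were CpG-rich, 5 of 10 in mesoderm, 2 of 4 in endoderm and 4 of 6 in trophoblast. For Six3, Gata3, Tfap2a and Esx1 the nearest RefSeq start lay 1757 to 11434 bases from the annotated start, the farthest being Gata3. Those windows may miss the start used in these cells.

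**Figure D3:**
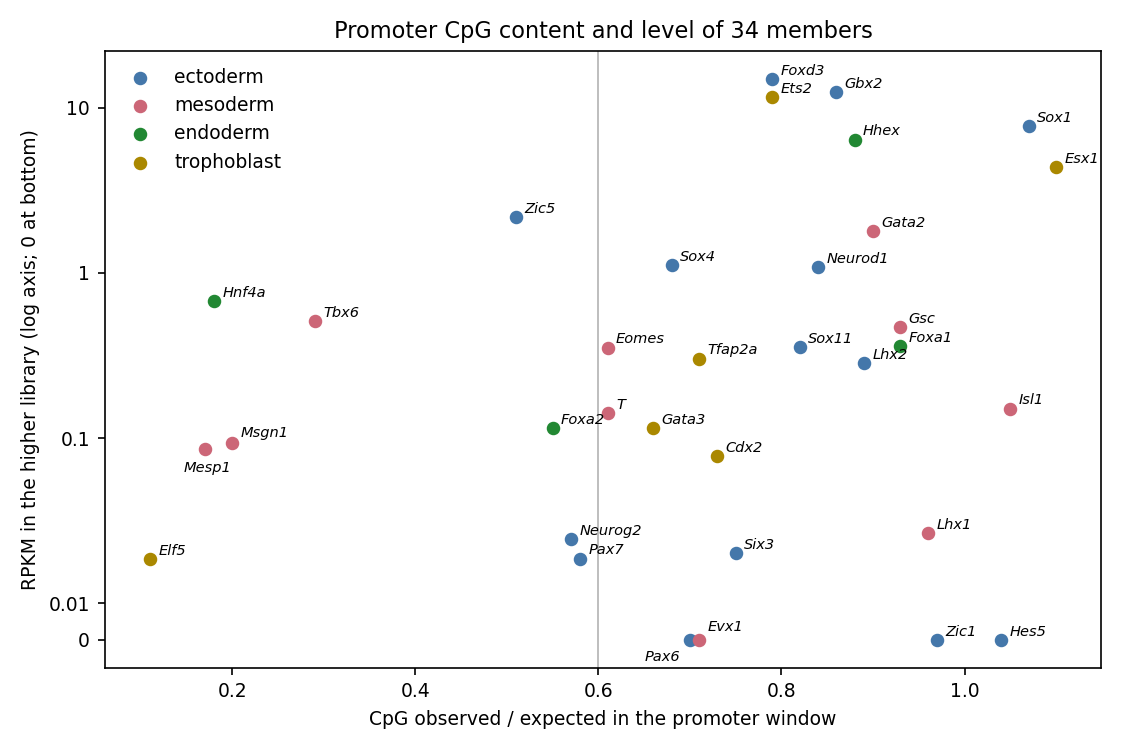
CpG observed over expected in the promoter window (x axis) against RPKM in the higher library (y axis, log, with 0 at the bottom) for the 34 members with a window, coloured by lineage; the vertical line marks 0.6. Silent genes such as Zic1 and Hes5 share the right side with Sox1 and Gbx2, while Elf5, Mesp1, Msgn1, Hnf4a and Tbx6 lie under 0.3.

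The comparison of the libraries asks which lineage factors differ when AHCY carries the T136A replacement. On the log2 scale with 1 RPKM added, 17 of the 47 members reached 1 RPKM in at least 1 library. Of these 17, 1 (Gbx2) was at least 2-fold higher in T136A and 1 (Sox1) at least 2-fold lower, against 3.13% and 3.1% of 12320 genes. The added 1 RPKM hides differences of weak genes, so the counting interval was also read for the 34 members at or above 0.1 RPKM. It lay above a fold of 1 for 13 members (38.2%) and below it for 7 (20.6%), against 25.6% and 28.3% of 18572 genes. A higher value in T136A, of any size, was found for 24 of the 34 (70.6%), against 48.7% of genes at that level. By class, that was 14 of 17 at trace level, 7 of 14 primed and 3 of 3 expressed members, against 51.2%, 46.9% and 48.1% of genes in the same classes. With so many genes outside their counting interval, such an interval shows that read numbers differ and not that genotypes do.

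**Figure D4:**
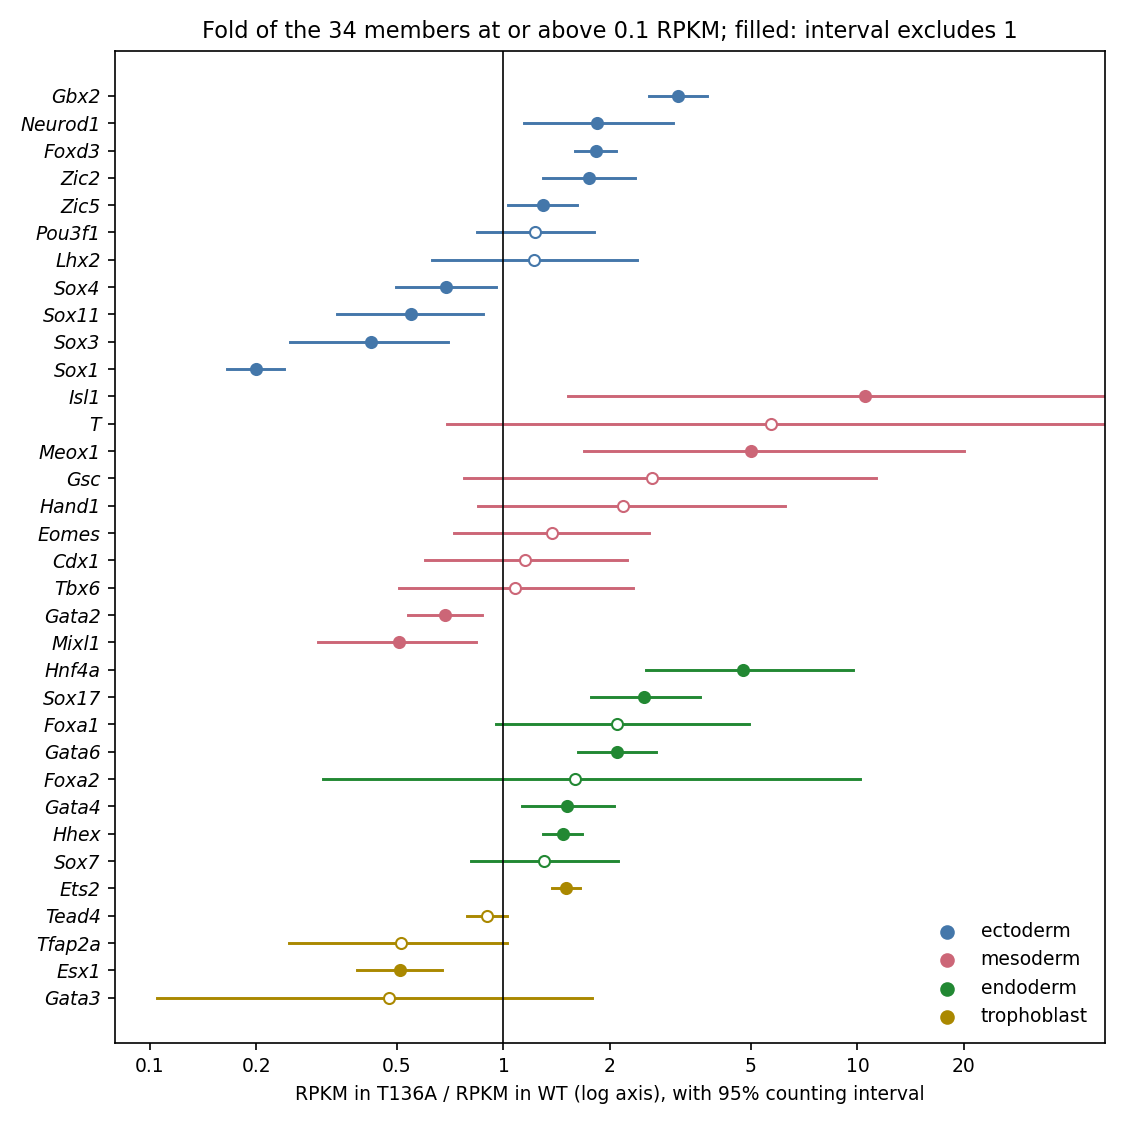
RPKM in T136A over RPKM in WT (x axis, log) with the 95% counting interval for the 34 members at or above 0.1 RPKM, grouped by lineage; filled points have an interval that excludes 1. The intervals of Isl1 and T run past the right end, to 451 and 263. All 8 endoderm points lie to the right of 1, and Sox1 lies farthest to the left.

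Ectoderm factors went in opposite directions by family. Among the ectoderm members, the 4 Sox genes were lower in T136A and the Zic and homeobox genes that had reads were not, except that silent Six3 turned to -0.01 (log2) under quantile normalization. Sox1 (ENSMUSG00000096014; GRCm38 chromosome 8, 12395295 to 12400126, plus strand), which marks and promotes neural fate, had 7.77 RPKM in WT against 1.55 in T136A. Its 657 and 138 reads made it 5-fold lower (4.16 to 6.06), the widest margin below 1 in the list. Sox3, a close relative of Sox1 that keeps neural progenitors undifferentiated, stood at 1.49 and 0.632 RPKM, 2.36-fold lower (1.44 to 4). Sox4, which acts as neurons mature, stood at 1.12 and 0.771 RPKM, 1.45-fold lower (1.05 to 2.01). The exons of Gm26735, on the opposite strand, cover 2616 bases of Sox4, and Gm26735 was not analysed here. Sox11, a close relative of Sox4, stood at 0.357 and 0.196 RPKM, 1.82-fold lower (1.14 to 2.96). All 4 differed beyond counting error, Sox4 by a narrow margin. Sox2, the third member of the group of Sox1 and Sox3 and no member of the list, was also lower in T136A, at a level far above both.

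Gbx2 (ENSMUSG00000034486; GRCm38 chromosome 1, 89927956 to 89931179, minus strand) helps to set the boundary between midbrain and hindbrain and is also active in stem cells grown with LIF. It had 3.99 RPKM in WT against 12.4 in T136A, with 152 and 496 reads, 3.11-fold higher (2.58 to 3.75). The gene D130058E05Rik overlaps 946 of its exon bases on the opposite strand and stood at 1.12 and 0.853 RPKM, so it did not move with Gbx2. Foxd3, a regulator of both pluripotent cells and neural crest, stood at 8.23 and 15.0 RPKM, 1.82-fold higher (1.59 to 2.08). The lincRNA Gm12688, which lies 1316 bases from Foxd3 on the opposite strand, stood at 0.978 and 3.33 RPKM, also higher in T136A.

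Zic2 and Zic5, zinc finger genes of the dorsal neural tube, lie 9758 bases apart on chromosome 14 and point away from each other. Zic2 had 1.39 RPKM in WT against 2.42 in T136A, 1.74-fold higher (1.29 to 2.36), and Zic5 had 1.68 and 2.17 RPKM, 1.29-fold higher (1.03 to 1.61). Genes of chromosome 14 at or above 1 RPKM had a median of 0.32 (log2 with 1 RPKM added, 453 genes). The medians of other chromosomes ran from -0.10 to 0.02. On that scale the ratios were 0.52 for Zic2 and 0.24 for Zic5, and with 0.1 RPKM added they were 0.76 and 0.35. The added 1 RPKM shrinks weak genes more than abundant ones. Whether Zic5 stood above its chromosome was thus not settled. The part of chromosome 14 in these values was not tested. Zic1, on chromosome 9, had no read in either library.

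Among the remaining ectoderm factors, Neurod1, which drives neurons to mature, stood at 0.586 and 1.08 RPKM, 1.84-fold higher (1.14 to 3.01). Pou3f1, a factor of the later epiblast and of neural cells, stood at 0.772 and 0.946 RPKM, and Lhx2, of eye and forebrain, at 0.234 and 0.285 RPKM. The intervals of Pou3f1 (0.841 to 1.8) and Lhx2 (0.628 to 2.39) included 1. The 7 silent members were Pax3, Pax6, Pax7, Zic1, Hes5, Neurog2 and Six3. They regulate neural crest and muscle (Pax3, Pax7), eye and forebrain (Pax6, Six3), neurogenesis (Neurog2) and its Notch-driven restraint (Hes5). Pax3, Pax6, Zic1 and Hes5 had no read in either library, and Pax7, Neurog2 and Six3 had at most 2. A count of 0 still allows up to 3 reads. For the long transcript of Pax6 that is 0.0147 RPKM in WT, but for the short one of Hes5 it is 0.126 RPKM, above the limit used for silent.

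Mesoderm had the lowest summed level of the 4 lineages, and 10 of its 14 members had a higher value in T136A, 3 a lower one and 1 no read. At or above 0.1 RPKM, 8 of 10 were higher, against 48.7% of genes, but each of these 8 had at most 27 reads in a library. Of these 8, T and Isl1 reached 0.1 RPKM in T136A alone. The 2 primed members were lower. Gata2, needed for blood stem cells and also active in trophoblast, was the highest, at 1.8 RPKM in WT against 1.23 in T136A. With 170 and 122 reads it was 1.46-fold lower (1.15 to 1.86). Mixl1, a homeobox gene of the primitive streak, stood at 1.17 and 0.592 RPKM, 1.98-fold lower (1.19 to 3.35). These were the only mesoderm members lower beyond counting error.

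T, or Brachyury, the defining factor of the primitive streak, had 1 read in WT and 6 in T136A, at 0.0247 and 0.141 RPKM. Its ratio of 5.71 had an interval from 0.693 to 263 and cannot be told from 1 at this depth. Eomes, which acts with T in the streak and also in trophoblast, stood at 0.257 and 0.353 RPKM (interval of the ratio 0.725 to 2.57). Gsc, of the organiser, stood at 0.180 and 0.472 RPKM (0.775 to 11.3), and Tbx6, of the mesoderm beside the neural tube, at 0.475 and 0.512 RPKM (0.507 to 2.32). None of these streak factors differed beyond counting error. Hand1, of heart and trophoblast, stood at 0.2 and 0.436 RPKM (0.847 to 6.25), and Cdx1, which patterns the posterior embryo, at 0.620 and 0.714 RPKM (0.6 to 2.24).

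Meox1 and Isl1 were the mesoderm members with an interval above 1, both from few reads. Meox1, a homeobox gene of somites, had 4 reads in WT and 21 in T136A, at 0.103 and 0.512 RPKM, 5-fold higher (1.69 to 20). Isl1, a homeobox gene of heart progenitors and motor neurons, had 1 and 11 reads, at 0.0144 and 0.151 RPKM, with a ratio of 10.5 (1.52 to 451). Silent were Evx1, of the posterior streak, with no read, and Mesp1, Msgn1 and Lhx1, with at most 2 reads in either library. Msgn1 and Mesp1 are short, and 3 reads would stand for 0.280 and 0.134 RPKM in WT. With Hes5 they are the 3 silent members for which the depth does not reach the limit of 0.1 RPKM. Mesp2, the neighbour of Mesp1 in the same family, 16939 bases away, had 2.32 RPKM in WT against 1.45 in T136A. Mesp2, a somite factor, was thus well above its silent neighbour.

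Endoderm was the lineage in which all members had a higher value in T136A. The ratios ran from 1.30 for Sox7 to 4.76 for Hnf4a, and the interval lay above 1 for 5 of the 8 (62.5%), against 25.6% of all genes at that level. The median log2 ratio of the 8 was 0.40, and that of all genes without a minimum level was 0.00. These sets differ in level, since 2990 of all genes had no read in either library. At or above 1 RPKM the medians were 0.52 for 4 members and -0.03 for 12320 genes. All 8 values also stayed higher under each of the 4 other scalings tried, and the 6 members outside chromosome 14 were all among them. With 1 RPKM added, 0 of the 8 passed the 2-fold line. Of the 9 fibroblast markers found, 8 likewise had a higher value in T136A, 4 of them with an interval above 1. The intervals of Col1a1, Col1a2, Postn and Fbn1 included 1, and Fn1, the most abundant, was lower. The part of these markers in the endoderm values was not tested.

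Gata6 starts the primitive endoderm programme, which splits from the epiblast before implantation. It had 0.805 RPKM in WT against 1.68 in T136A, 2.09-fold higher (1.62 to 2.70). Gata4, which follows Gata6 in that programme, stood at 1.11 and 1.68 RPKM, 1.51-fold higher (1.13 to 2.05). Sox17, which acts in both primitive and definitive endoderm, stood at 0.551 and 1.38 RPKM, 2.50-fold higher (1.77 to 3.60). These 3 factors stood between 0.551 and 1.11 RPKM in WT and between 1.38 and 1.68 RPKM in T136A. Sox7, of the same Sox subgroup, stood at 0.571 and 0.741 RPKM, and its interval from 0.810 to 2.10 included 1. Sox18, the remaining gene of that subgroup and better known from blood vessels, went the other way, at 1.90 and 0.805 RPKM (2.36-fold lower, 1.44 to 4). Gata4 and Sox7 lie on chromosome 14 and had log2 ratios of 0.34 and 0.15 with 1 RPKM added. Genes of that chromosome at or above 1 RPKM, which leaves out Sox7, had a median of 0.32. All 976 of its genes, 125 of them without a read, had a median of 0.06. The added 1 RPKM shrinks the ratios of weak genes such as these. The processed transcript Gm37587 overlaps 804 exon bases of Sox17 on the opposite strand and was not analysed here, so reads of that stretch may belong to either.

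Hnf4a (GRCm38 chromosome 2, 163506808 to 163572910, plus strand), a nuclear receptor of visceral endoderm and liver, had 12 reads in WT and 60 in T136A. At 0.142 and 0.676 RPKM it was 4.76-fold higher (2.53 to 9.72), the highest ratio among endoderm members. Hhex, a homeobox gene of anterior endoderm and liver bud, was the most abundant of them, at 4.38 and 6.42 RPKM, 1.47-fold higher (1.29 to 1.67). The pioneer factors Foxa1 and Foxa2, which open liver and gut enhancers, were low in both libraries. Foxa1 stood at 0.172 and 0.359 RPKM (ratio 2.09, 0.951 to 4.95) and Foxa2 at 0.0723 and 0.115 RPKM (1.59, 0.309 to 10.2), within counting error. Foxa3, the remaining gene of that subgroup, was no member and was lower in T136A, at 3.28 and 0.987 RPKM. Read numbers of Gata4, Gata6, Sox17 and Hhex were not whole in 1 or both libraries, and their intervals are from rounded values.

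Trophoblast factors divided into 3 with clear levels and 4 with few reads. Tead4, which starts the trophectoderm programme in the morula, had 8.10 RPKM in WT against 7.27 in T136A, with an interval of 0.791 to 1.02. Its levels were the closest of any member above 5 RPKM. Ets2, needed for trophoblast stem cells, stood at 7.73 and 11.6 RPKM, 1.5-fold higher (1.37 to 1.64). Esx1, an X-linked homeobox gene of the placenta, stood at 4.40 and 2.25 RPKM, 1.96-fold lower (1.49 to 2.60). The 3 went in different directions.

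Cdx2, the factor that with Pou5f1 separates trophectoderm from inner cell mass, was silent, at 0.0253 and 0.0774 RPKM. Elf5, which locks in trophoblast stem cell fate, was silent as well, with 1 read in WT and 2 in T136A. Gata3, which acts beside Cdx2, stood at 0.115 and 0.0547 RPKM, and Tfap2a, of trophoblast and surface ectoderm, at 0.303 and 0.155 RPKM. The intervals of Gata3 (0.105 to 1.78) and Tfap2a (0.247 to 1.02) included 1. Of the 7 values, 4 were lower in T136A and 3 higher. With Gata2 and Cdx1 counted here instead of with mesoderm, 5 of 9 were lower and 4 higher.

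Other markers and signals of each lineage were taken as companion lists of 20 genes each, and 76 of the 80 entries were found. For the counts below, the shares over 12320 genes at or above 1 RPKM were 3.13% at least 2-fold higher and 3.1% at least 2-fold lower. Of the 3 ectoderm companions at or above 1 RPKM, Otx2, a head and epiblast factor on chromosome 14, was at least 2-fold lower, at 13 RPKM in WT against 5.06 in T136A. The neural filament gene Nes (1.18 and 1.91 RPKM) and the tubulin Tubb3 (23.8 and 22.5 RPKM) were in between. Of 6 mesoderm companions, 2 were at least 2-fold higher. They were Tcf15, a somite factor also found in epiblast cells that are leaving the naive state, at 9.09 and 52.1 RPKM (5.73-fold higher, 4.83 to 6.83), and the ligand Bmp4, on chromosome 14, at 3.8 and 8.87 RPKM. The ligand Nodal (63.8 and 52.7 RPKM) and the T-box gene Tbx3 (58.9 and 44.5 RPKM) were in between, as were Mesp2 and Etv2 (0.927 and 1.4 RPKM), which starts blood and vessel fates. Tcf15 thus differed more than any mesoderm factor above 1 RPKM, and in the direction opposite to Gata2 and Mixl1.

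Of 10 endoderm companions at or above 1 RPKM, Col4a1, a chain of basement membrane collagen (3.57 and 9.80 RPKM), was past the 2-fold line, and 0 were past it on the lower side. Its partner Col4a2 stood at 2.87 and 5.42 RPKM and the endocytic adaptor Dab2 at 1.17 and 2.07 RPKM. At the lower end were the chemokine receptor Cxcr4 (2.72 and 1.17 RPKM), Sox18 and the laminin chain Lamc1 (54.5 and 38.5 RPKM). The median log2 ratio of the 10 was 0.22, and of the 19 found, 12 had a higher value and 7 a lower. Of the 16 at or above 0.1 RPKM, the interval lay above 1 for 8 and below 1 for 3, against 25.6% and 28.3% of 18572 genes. The companions of endoderm thus went both ways in value, unlike the 8 factors, with more intervals above 1 than below. Among 12 trophoblast companions, Rhox6 (0.848 and 4.57 RPKM) was at least 2-fold higher and Tfap2c (57.7 and 26.5 RPKM), a factor shared by trophoblast, germ cells and stem cells, at least 2-fold lower. Plet1, a surface protein of trophoblast progenitors, had 2 reads in WT and 39 in T136A, at 0.0587 and 1.09 RPKM. Ascl2, a factor of the spongy placenta, stood at 1.44 and 2.88 RPKM, while the ligand Wnt7b (2.86 and 1.69 RPKM) was lower.

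**Figure D5:**
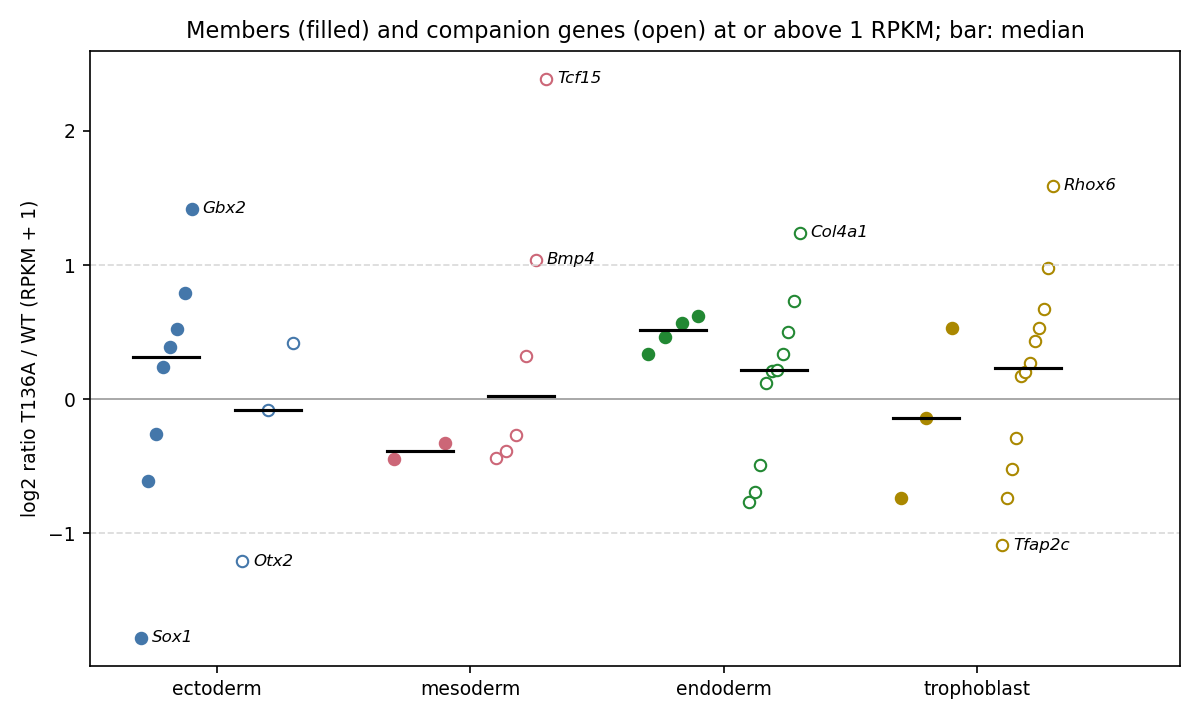
Log2 ratio of T136A over WT with 1 RPKM added (y axis) for members (filled) and companion genes (open) that reached 1 RPKM in either library, by lineage; bars are medians and dashed lines mark 2-fold. Gbx2 and Sox1 are the members past 2-fold, and Tcf15, Bmp4, Col4a1, Rhox6, Otx2 and Tfap2c the companions.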

How the data were processed

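Total RNA of 2 E14.1 libraries, 1 per genotype, was sequenced on an Illumina GAIIx after TruSeq preparation, per the labels' protocols. The authors deposited 1 value per Ensembl gene and library, read here as RPKM from the values: multiplied by GENCODE M21 union exon length, 89.7% of positive WT values and 89.9% of positive T136A values were whole multiples of 1 constant per library, within 0.01. The constants gave the totals. Gene coordinates are those of GENCODE M21 (GRCm38) matched by Ensembl identifier, a later build than mm9. CASAVA 1.8 and mm9 are named in the submitters' processing notes, with no role. For the aligner, the counter and the use of strand: not given in the sources used here. Reads were whole in both libraries for 40 members, and for the other 7 rounded read equivalents were used.

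Symbols matched 25696 identifiers, and of identifiers sharing a symbol the one with the higher total was kept. Lists, members and level limits were chosen with earlier results of these data known. The named genes are the members, the 3 highest and 3 lowest companions of each lineage at or above 1 RPKM, family neighbours, and Pou5f1, Sox2 and Nanog, except 1 companion that is not reported here. Sox18 as a relative of Sox17, Foxa3, D130058E05Rik, Gm12688, Gm37587, Col1a1, Col1a2, Fbn1, Postn and Fn1 fall outside this rule or were singled out after their values were seen. Exons of 15 members overlap another gene, 13 of them on the opposite strand. Whether reads of those stretches were told apart by strand is not known. Intervals used SciPy 1.17.1. The steps were tested on simulated reads.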

Additional observations from a re-analysis of the deposited data

How the results depend on the processing

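No paired analysis was possible because each genotype had 1 library, and for the same reason no replicate could be left out. The alternative for raw counts was not run, since the values are RPKM. Of 329 values of single members under 7 settings, 8 crossed the 2-fold line and 0 changed sign while past it. With 0.1 RPKM added, Sox3 (-1.12), Gsc (1.03), Meox1 (1.60), Isl1 (1.13), Sox17 (1.18) and Hnf4a (1.68) passed it, and with 5 added, Sox1 (-0.96) and Gbx2 (0.95) fell inside. With 0.1 added, 2 members at or above 1 RPKM were higher and 2 lower, among 723 higher and 727 lower genes, and with 5 added 0 and 0, among 101 and 114. Medians of members at or above 1 RPKM were 0.31 for ectoderm, -0.39 for mesoderm (2 genes), 0.52 for endoderm and -0.14 for trophoblast. With 0.1 added the first 3 became 0.55, -0.70 and 0.77, with 5 added 0.11, -0.13 and 0.20, and with no minimum 0.02, 0.07 and 0.40, so mesoderm changed sign. A minimum of 5 RPKM gave 0.79 for ectoderm and 0.19 for trophoblast, no value for mesoderm, 0.46 for endoderm, and 209 higher genes. Without chromosome 14 ectoderm stood at 0.06. Upper quartile scaling raised the median of all genes from -0.03 to 0.10 and the number of higher genes from 386 to 587, with 0.63 for endoderm and 0.00 for trophoblast. Restricting to whole reads, an alternative chosen after seeing the data, gave -0.44 for trophoblast. It removed Gata4, Gata6, Sox17 and Hhex and so gave no value for endoderm. The 4 endoderm members it kept all had a higher value in T136A. Quantile normalization turned 3 silent members, Six3, Lhx1 and Elf5, to -0.01 each, and 0 endoderm members. With limits of 0.05, 0.5 and 5 RPKM, 6 members were expressed. With 0.2, 2 and 20 RPKM, 9 were primed and 0 expressed, and by the lower library 0 were expressed. The make-up of the lineages moved too: by the lower library or with the higher limits, 1 endoderm member was silent, and primed mesoderm members numbered 2 at first, 5 with the lower limits, 0 with the higher limits and 1 by the lower library, while ectoderm kept a count of 7 silent in each. The other 89 medians and counts over all genes or members stayed within 0.1 (medians) or 1.5 times (counts). Depth limits all factors under about 20 reads. The causes were not tested.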

Other observations

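The other 117 genes of the same transcription factor families, found by symbol and including Pou5f1 and Sox2, were read beside the 47 factors. Of the 47 among them at or above 1 RPKM, 4 passed the 2-fold line upwards in T136A and 5 downwards, against 3.13% and 3.1% of 12320 genes. The median log2 ratio of these family genes was -0.29, against -0.03 for all genes and 0.34 for the 17 lineage factors at that level. The genes named here were chosen after their values were seen. Those at least 2-fold higher were Sox15 (17.4 RPKM in WT and 45.6 in T136A), a Sox gene of stem cells and muscle progenitors, Sox13 (1.79 and 4.61), Foxp4 (6.15 and 13.4) and Pou2f3 (0.240 and 2.29). Lower by at least 2-fold were Foxn4 (2.85 RPKM in T136A, log2 ratio -1.97), Foxh1, a partner of SMAD proteins in Nodal signalling (24.2 and 9.91), Neurog3 (1.4 and 0.130), which starts endocrine pancreas cells, Foxa3 and Tfap2c.

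In several families the abundant gene was not among the lineage factors. Tead2 stood at 24.7 and 25.1 RPKM, Hes1 at 66.3 and 38.9 RPKM against 0 for Hes5, and Elf3 at 39.3 and 47.6 RPKM against at most 0.0185 RPKM for Elf5.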
